A study of Mus musculus with 24 samples.

Results

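The left ventricle of mice killed 45 min after a sham heart operation was compared with that of mice killed at 0 min, with 8 mice on each side. These are 16 of the 24 mRNA libraries of a series that also held 8 libraries at 24 h, and the 24 h libraries were used here to estimate the spread and to follow the transcripts that had moved at 45 min. The groups were set by the time after surgery that the labels give, and every transcript with enough counts was tested, 8940 of the 63758 listed by UCSC identifier. All mice were male C57BL/6J of 8 to 12 weeks (C57BL/6 in the labels) with no genetic change. Every group, 0 min included, received pentobarbital and buprenorphine, was intubated and ventilated, and underwent a left thoracotomy in which a suture was led around the left anterior descending artery of the heart. No artery was ligated in any group. The 24 h mice recovered with a closed chest after the 45 min of surgery. The comparison therefore covers time spent anaesthetised with an open chest after the suture was placed. The effects of anaesthesia, ventilation, wound and needle in that time cannot be told apart.

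Immediate early genes are transcribed within minutes of a stimulus without the need for new protein, and encode transcription factors such as FOS and FOSB. Their products and those of NF-kB and STAT signalling turn on a next layer of genes for chemokines, adhesion molecules of the endothelium and inhibitors that close the same pathways again. In the heart these genes can be used by cardiomyocytes, endothelium, fibroblasts and resident immune cells. Many of their mRNAs are short-lived, and so can also fall quickly when transcription stops.

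The 16 libraries held between 10140189 and 14091629 counts. The cardiomyocyte markers Actc1 and Actn2 were present in all of them, with mean levels of 14854 and 2528 CPM at 0 min and 16548 and 2731 CPM at 45 min. CPM are read counts scaled to library size, here with factors from the trimmed mean of M values (TMM). Replicates 6, 7 and 8 at 45 min stood apart from replicates 1 to 5. They had 12972 to 14353 transcripts detected (at least 1 count), against 17114 to 18109. The 0 min libraries had 14597 to 18725. The lowest of these, replicates 7 (14597) and 5 (14778), were close to replicate 7 at 45 min (14353). The TMM factors of replicates 6, 7 and 8 at 45 min were 0.729 to 0.798. In replicate 1 at 45 min a single transcript, uc012ath.2, took 35.2% of the counts and the TMM factor was 0.717. Calls that were lost, and list counts that moved, without replicates 6, 7 and 8 are given below. That fit leaves out libraries on the 45 min side only and keeps 0 min replicates 5 and 7.

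The promoters of 4 transcripts that rose and 1 that fell are shown because the groups of these transcripts did not overlap and because each holds letters of a motif that was searched. They are RefSeq windows of GRCm38.p6 (the build called mm10 by the authors), running from 250 bases before to 50 bases after an annotated start. Capitals mark the motif matches. Fosb lies at chr7:19309996-19310295 on the minus strand, and the start used lies 73 bases inside the outermost start of the gene. Cxcl1 lies at chr5:90890995-90891294, Ptx3 at chr3:66219637-66219936 and Gadd45b at chr10:80929841-80930140, all on the plus strand. Crhr2 lies at chr6:55132967-55133266 on the minus strand. The windows of Has1 and Socs3 are built on starts 401 and 970 bases inside their genes and are not shown. The window of Fam102a, a fall whose groups did not overlap either, held no match and is not shown. Every window shown thus holds a match by choice.
Fosb: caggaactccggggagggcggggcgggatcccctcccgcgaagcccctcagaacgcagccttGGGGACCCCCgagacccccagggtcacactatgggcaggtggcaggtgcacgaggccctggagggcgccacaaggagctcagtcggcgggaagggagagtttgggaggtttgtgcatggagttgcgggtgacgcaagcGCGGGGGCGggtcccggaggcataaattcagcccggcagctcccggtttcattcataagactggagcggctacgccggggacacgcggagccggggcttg
Cxcl1: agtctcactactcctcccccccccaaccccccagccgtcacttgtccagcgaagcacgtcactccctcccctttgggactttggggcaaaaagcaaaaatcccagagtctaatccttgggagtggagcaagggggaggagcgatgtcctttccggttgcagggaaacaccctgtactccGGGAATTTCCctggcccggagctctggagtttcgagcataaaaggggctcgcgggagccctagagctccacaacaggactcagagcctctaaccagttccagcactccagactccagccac
Ptx3: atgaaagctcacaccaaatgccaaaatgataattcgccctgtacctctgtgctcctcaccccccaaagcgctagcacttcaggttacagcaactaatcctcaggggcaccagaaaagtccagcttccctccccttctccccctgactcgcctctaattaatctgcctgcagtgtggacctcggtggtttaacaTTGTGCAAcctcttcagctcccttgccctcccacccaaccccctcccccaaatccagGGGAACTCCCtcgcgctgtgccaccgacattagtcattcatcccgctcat
Gadd45b: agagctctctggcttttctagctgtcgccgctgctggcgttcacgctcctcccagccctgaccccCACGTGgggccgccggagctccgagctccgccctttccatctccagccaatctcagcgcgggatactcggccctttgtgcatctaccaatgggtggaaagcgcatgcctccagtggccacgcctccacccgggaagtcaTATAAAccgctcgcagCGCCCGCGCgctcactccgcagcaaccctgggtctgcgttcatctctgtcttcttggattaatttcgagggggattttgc
Crhr2: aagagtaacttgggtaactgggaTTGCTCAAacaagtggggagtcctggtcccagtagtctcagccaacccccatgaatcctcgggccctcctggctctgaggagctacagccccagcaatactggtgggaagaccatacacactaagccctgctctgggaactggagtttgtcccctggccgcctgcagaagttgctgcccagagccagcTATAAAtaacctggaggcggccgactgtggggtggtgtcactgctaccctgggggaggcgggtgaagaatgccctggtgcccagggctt
In the Fosb window the capitals are an NF-kB match at base 63 and an Egr match (GCGNGGGCG) at base 201. Cxcl1 had an NF-kB match at base 180, and Ptx3 had a C/EBP match (TTGCNNAA) at base 194 and an NF-kB match at base 251. Gadd45b had an E-box (CACGTG) at base 66, a TATA box (TATAAA) at base 205 and an Egr match on the other strand at base 221. Crhr2 had a C/EBP match at base 24 and a TATA box at base 212. No matches overlapped in these windows, and both strands were searched.

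A window was listed for 35 of the 43 transcripts that rose and for 12 of the 22 that fell. NF-kB letters were found in 5 of the 35 (14.3%), those of Fosb, Cxcl1, Ptx3, Fos and Nfkbia, in 2 of the 12 windows of falls (16.7%), those of Hhex and Nrarp, and in 5.55% of all 27025 windows. STAT letters (TTCNNNGAA) were in 5 windows (14.3%), of Socs3, Sele, Icam1, D730005E14Rik and Fas, against 8.47% of all, and in 0 of the 12. AP-1 letters (TGANTCA) were in 5 rises and 0 falls (14.3% and 0%, against 7.93% of all). An E-box was in 7 rises (20%) and 2 falls (16.7%), against 7.24%. A cAMP response element (TGACGTCA) was in 2 rises, Has1 and Lrrc8a (5.71%), and in 1 fall, Plk2 (8.33%), against 1.88%. C/EBP letters were in 3 rises (8.57%) and 3 falls (25%), against 10.8%, and a heat shock element (GAANNTTC) was in 3 rises (8.57%) and 0 falls, against 7.95%. Egr letters were in 4 rises (11.4%) and 2 falls (16.7%), against 5.55%, and a TATA box in 8 (22.9%) and 2 (16.7%), against 14.2%. The serum response element was in 0 of the 35, in 1 fall (Actg1) and in 1.57% of all windows, and a count of 0 says only that the letters are not in these 300 bases. The windows of Has1 and Socs3, on starts inside their genes, are counted in these shares. These shares describe letters in a window and were not tested.

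Within 45 min, 65 of the 8940 transcripts (0.727%) were past an adjusted p of 0.05 (quasi-likelihood test of edgeR, Benjamini-Hochberg adjustment over all of them). Of these, 43 rose (0.481% of those tested) and 22 fell (0.246%). The median log2 fold change, 45 min over 0 min, was 1.29 among the rises and -0.99 among the falls, beside 0.01 over all transcripts, and for the same transcripts it was 1.15 and -1.05 without replicates 6, 7 and 8. A change of at least 2 on the log2 scale was reached by 16 rises and 3 falls, and by 9 and 3 without those libraries. The largest rises were those of immediate early, chemokine, feedback and hyaluronan genes, and the larger falls included a receptor, a Notch feedback gene and low-level transcripts of cytoskeletal and ribosomal genes. All 8 mice at 45 min lay above all 8 at 0 min in 20 of the 43 rises, where 0.235% of all tested transcripts were separated upward, and below in 4 of the 22 falls (0.0671% of all). In CPM without TMM factors the groups were apart in 11 rises and 2 falls. Without replicates 6, 7 and 8, 28 transcripts rose and 19 fell, and 21 of the 43 and 12 of the 22 were among them.

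**Figure D1:**
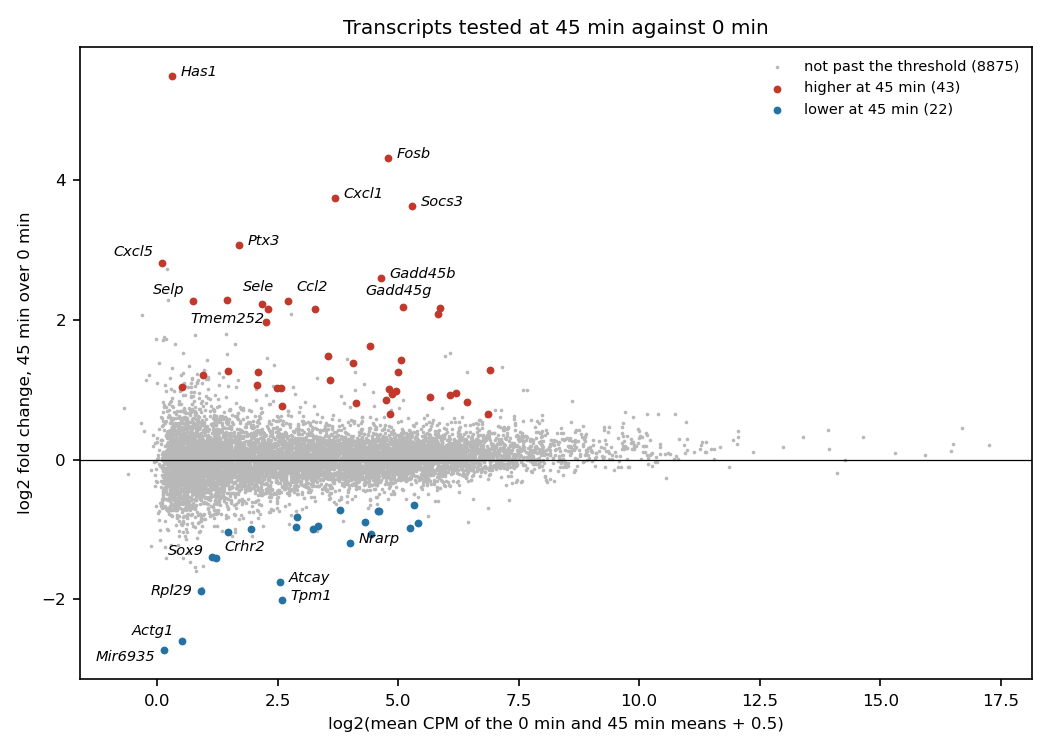
Each point is 1 of the 8940 transcripts tested, placed by its mean level (horizontal, log2 of CPM plus 0.5) and its log2 fold change at 45 min over 0 min (vertical). The 43 transcripts that rose are red and have a median of 1.29, the 22 that fell are blue and have a median of -0.99, and the 12 largest rises and 8 largest falls are named.

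The adjusted p values thinned out gradually around the threshold. The last transcripts inside it were Tcf15 and Atcay (both 0.0480), and the first outside was uc009dmf.1 (0.0530). Junb (log2 fold change 1.26, adjusted p = 0.0618), Ptgs2 (1.65, 0.0627) and Esm1 (-1.33, 0.0642) did not pass.

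The function and marker lists below hold only transcripts that the study had picked for change over time in these same mice. Of 1097 such transcripts tested, 64 were called, against 65 of all 8940 (0.727%). List counts were not tested against either share. Immediate early and stress transcription factors formed a list of 16 tested members, of which 2 rose, 1 fell and 13 did not pass in edgeR. DESeq2 called 4 higher and 3 lower, limma-voom 3 and 1, and 5 were higher and 5 lower at an unadjusted p under 0.05. Without replicates 6, 7 and 8 edgeR called 1 higher, Fosb, and 2 lower, Id1 and Klf2. Fosb (uc009flk.1), which encodes a partner of JUN in the AP-1 factor, had 1.19, 2.13 and 6.77 CPM as lowest, median and highest value at 0 min and 7.47, 48.1 and 124 CPM at 45 min. Every mouse at 45 min was above every mouse at 0 min, and replicate 7 was the highest. The log2 fold change, 45 min over 0 min, was 4.31 (adjusted p = 5.98e-06 in edgeR, with a standard error of 0.47) and 3.88 without replicates 6, 7 and 8.

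Fos, the founding member of the family, had 9.63, 17.4 and 59.8 CPM at 0 min and 11.5, 103 and 201 CPM at 45 min. The groups overlapped: 5 of the 8 mice were above the 0 min range, while replicate 2 stayed near its lower end and one 0 min mouse was high. Its log2 fold change of 2.17 (adjusted p = 0.0138) did not pass without replicate 7 at 45 min (1.92, adjusted p = 0.0520) or without replicates 6, 7 and 8 (1.72, adjusted p = 0.138). Among the other members, Egr1 went from a mean of 80.3 to 202 CPM (log2 fold change 1.33, adjusted p = 0.230), and the values were 1.44 in Nr4a3 (0.0995) and 0.35 in Nr4a1 (0.952). Negative values that did not pass were found in the flow-responsive factors Klf2 (-0.89, adjusted p = 0.141) and Klf4 (-0.80, 0.0995), and Klf2 passed without replicates 6, 7 and 8 (-1.35, adjusted p = 0.0195). Id1, an inhibitor of basic helix-loop-helix factors and a target of bone morphogenetic protein signalling, fell from 55.1 ± 10.8 to 29.4 ± 12.6 CPM (mean and SD, n = 8; log2 fold change -0.90, adjusted p = 0.0326). Replicate 7 was alone within the 0 min range, at 56.4 CPM. The call was lost in 14 of the 16 fits that left out 1 library, with an adjusted p of up to 0.145, and passed without replicates 6, 7 and 8 (-1.29, adjusted p = 0.00166).

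Chemokines draw leukocytes out of the blood. Of 13 tested, 4 rose and 0 fell in edgeR, with 7 higher and 0 lower at an unadjusted p under 0.05, and DESeq2 and limma-voom called 4 and 1 higher and 0 lower. The median of the list was 0.77, and 0.33 without replicates 6, 7 and 8. Cxcl1, a neutrophil attractant, had 1.01, 1.52 and 2.97 CPM at 0 min and 13.2, 19.7 and 44.1 CPM at 45 min. The groups were far apart, and the lowest mouse at 45 min was several times above the highest at 0 min. Cxcl1 had the smallest adjusted p of all transcripts tested (log2 fold change 3.75, standard error 0.33, adjusted p = 1.84e-07) and kept a value of 3.35 without replicates 6, 7 and 8.

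Cxcl5, another ligand for the same receptor and a neighbour of Cxcl1 on chromosome 5, was near the limit of detection: 0, 0.0936 and 0.319 CPM at 0 min and 0.224, 0.896 and 1.77 CPM at 45 min. The 0 min libraries held 12 reads of it in total and the 45 min libraries 88. All mice but replicate 8 were above the 0 min range. This change (log2 2.82, standard error 0.64, adjusted p = 0.0270) lost the threshold in 7 of 16 fits that left out 1 library (0 min replicates 2, 4, 6, 7 and 8, 45 min replicates 6 and 7), where the adjusted p reached 0.0683.

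Ccl2, the main attractant of monocytes, had 1.05, 1.79 and 3.90 CPM at 0 min and 4.17, 10.3 and 21.6 CPM at 45 min, with no overlap. The change on the log2 scale was 2.26 (standard error 0.47, adjusted p = 0.0118). Ccl7, beside it on chromosome 11, had a log2 fold change of 2.15 (adjusted p = 0.0217), with 6 of 8 mice above the 0 min range. Without replicates 6, 7 and 8, Cxcl5 (2.63, adjusted p = 0.122), Ccl2 (1.86, 0.130) and Ccl7 (1.59, 0.218) did not pass, and Cxcl1 was the one that did. Ccl12 (1.51, adjusted p = 0.522), Ccl9 (0.77, 0.921) and Cxcl12 (-0.20, 0.952) did not pass in all 16 mice.

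Inhibitors that close signalling pathways went in both directions. Of 18 tested in the list of feedback regulators, 5 rose, 4 fell and 9 did not pass, and DESeq2 and limma-voom gave the same counts. At an unadjusted p under 0.05, 9 were higher and 5 lower, and 4 rose and 2 fell in edgeR without replicates 6, 7 and 8. Socs3, the inhibitor of JAK and STAT3 signalling downstream of the IL-6 receptor family, had 3.81, 5.46 and 9.39 CPM at 0 min and 16.8, 59.2 and 159 CPM at 45 min. There was no overlap, and the 45 min mice themselves spread widely, with replicates 7 and 8 close together at the top. The log2 fold change was 3.62 (standard error 0.45, adjusted p = 3.08e-05) and 2.71 without replicates 6, 7 and 8. In the IL-6 family and acute phase list it was the only one of 12 tested that passed in edgeR, where DESeq2 called 3 higher, limma-voom 1, and 5 were higher and 0 lower at an unadjusted p under 0.05. The median of that list was 0.92, and 0.35 without replicates 6, 7 and 8. The other members ran from -0.13 in C4b to 1.52 in Cebpd (34.8 to 99.9 CPM, adjusted p = 0.141), with 1.46 in Lcn2 (0.119) and 0.85 in Cebpb (0.292).

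The other feedback genes that rose were Rnd1, a small GTPase (log2 fold change 1.97, adjusted p = 0.00107), Tiparp, an ADP-ribosyltransferase (1.00, 0.00662), Nfkbia, which encodes the inhibitor of NF-kB (0.95, 0.00382), and Trib1, a pseudokinase (0.93, 0.00332). Nfkbia went from 49.9 ± 12.6 to 96.5 ± 27.3 CPM and did not pass without replicates 6, 7 and 8 (0.77, adjusted p = 0.0747), where Rnd1, Tiparp and Trib1 did. The 4 that fell were Smad7, an inhibitor of TGF-beta signalling (-0.96, adjusted p = 0.0138), Rgs4, a brake on G protein signalling (-0.74, 0.00928), Dusp6, a phosphatase of ERK (-0.73, 0.0270), and Trib2 (-0.65, 0.0437). The relatives Trib1 and Trib2 thus moved in opposite directions. Of these falls only that of Rgs4 passed without replicates 6, 7 and 8 (-0.89, adjusted p = 0.00385). Dusp1, another immediate early phosphatase, did not pass (143 to 88.7 CPM, -0.69, adjusted p = 0.559), but passed as lower without replicates 6, 7 and 8 (-1.28, 0.0175).

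Genes of hyaluronan and the extracellular matrix held the largest fold change. Has1, a synthase of hyaluronan, was almost absent at 0 min, where the 8 libraries had 2 reads in all and none more than 1, and 45 min libraries had 132. The ratio of the summed counts, corrected for library size, was 66.7 (95% exact interval 18.1 to 557, which covers counting error only). In CPM, the lowest, median and highest values were 0, 0 and 0.0917 at 0 min and 0.313, 1.05 and 3.80 at 45 min. Every 45 min mouse was above every 0 min mouse, and the highest (replicate 8) and the lowest (replicate 7) both came from the libraries with few transcripts detected. The fitted log2 value of 5.49 (standard error 0.73, adjusted p = 7.29e-05) depends on the prior count of the model, and was 5.47 without replicates 6, 7 and 8. The other synthase, Has2, did not pass (-0.59, adjusted p = 0.952).

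Ptx3, a long pentraxin that binds hyaluronan-rich matrix and complement and lies inside Veph1 on the opposite strand, had 0.159, 0.536 and 1.10 CPM at 0 min and 2.28, 4.69 and 9.90 CPM at 45 min. The groups did not overlap, and the log2 fold change was 3.07 (standard error 0.40, adjusted p = 7.11e-05), or 2.82 without replicates 6, 7 and 8. Timp4, an inhibitor of metalloproteinases that is abundant in heart, rose from 17.7 ± 5.28 to 47.7 ± 30.9 CPM (1.43, adjusted p = 0.0252), but by 0.64 (adjusted p = 0.335) without those libraries. These 3 were the members past the threshold in edgeR among 17 tested, where DESeq2 called 4 higher and limma-voom 2, and 10 were higher and 0 lower at an unadjusted p under 0.05. The median of the list was 1.00, and 0.36 without replicates 6, 7 and 8, and members such as Tnfaip6 (1.11, adjusted p = 0.180), Cyr61 (1.00, 0.321) and Mmp8 (2.73, 0.217) did not pass.

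Adhesion molecules that slow leukocytes on the vessel wall were another rising group, with 3 of 11 tested higher and 0 lower in edgeR. DESeq2 called 5 higher and 1 lower, limma-voom 2 and 1, and 7 were higher and 2 lower at an unadjusted p under 0.05. The number called by edgeR was 1 without replicates 6, 7 and 8. The E-selectin gene Sele had 0.488, 1.54 and 2.26 CPM at 0 min and 3.30, 5.50 and 13.7 CPM at 45 min. The groups did not overlap (log2 fold change 2.23, standard error 0.37, adjusted p = 0.00101), and the value was 2.14 without replicates 6, 7 and 8. The P-selectin gene Selp, near it on chromosome 1, had 0.183, 0.329 and 0.978 CPM at 0 min and 0.794, 1.9 and 3.24 CPM at 45 min, with 7 of 8 mice above the 0 min range. The log2 change was 2.27 (standard error 0.48, adjusted p = 0.0138). Icam1, a ligand for leukocyte integrins, rose from 18.6 ± 7.77 to 44.4 ± 16.6 CPM (1.25, adjusted p = 0.00301). Selp (2.1, adjusted p = 0.111) and Icam1 (0.83, 0.122) did not pass without replicates 6, 7 and 8.

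Growth arrest and stress response genes had 5 rises and 1 fall among 11 tested in edgeR, DESeq2 and limma-voom, with a median of 0.81. Without replicates 6, 7 and 8, 2 rose and 0 fell in edgeR, and the median was 0.81. Gadd45b, a stress sensor that binds MAP kinase kinases, had 3.29, 5.60 and 17.5 CPM at 0 min and 21, 36.3 and 76.5 CPM at 45 min. The groups did not overlap, although replicate 3 at 0 min came close to the lowest 45 min mouse. Its log2 fold change was 2.59 (standard error 0.36, adjusted p = 0.000130), and 2.16 without replicates 6, 7 and 8. Gadd45g had 5.82, 12.9 and 17.6 CPM at 0 min and 15.8, 46.5 and 121 CPM at 45 min. In replicates 2 and 4 it stayed within the 0 min range, and it was by far the highest in replicates 7 and 8 (2.18, standard error 0.40, adjusted p = 0.00343). Without replicates 6, 7 and 8 its value was 1.36 (adjusted p = 0.115). The third relative, Gadd45a, did not pass (0.25, adjusted p = 0.952).

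Chac1, a glutathione-degrading enzyme of the integrated stress response, rose by 1.48 on the log2 scale (adjusted p = 0.000712) and passed without replicates 6, 7 and 8. Ddit4, an inhibitor of mTORC1, rose from 69.3 ± 32.9 to 169 ± 54.2 CPM (1.29, adjusted p = 0.0120), and Fas, the death receptor, by 0.81 (0.0270). Plk2, a kinase of the polo family, fell (-0.90, adjusted p = 0.00976), although only 1 of its 45 min mice was below the 0 min range. The metallothionein Mt2 rose from 21.6 ± 13.2 to 91.2 ± 64.2 CPM (2.08, adjusted p = 0.00333) and was the only one of 12 tested in the metallothionein and antioxidant list that passed in edgeR. DESeq2 called 2 higher and limma-voom 1, 4 were higher at an unadjusted p under 0.05, and edgeR called 0 without replicates 6, 7 and 8. Mt1 had a value of 1.80 (adjusted p = 0.0988) and Hmox1 of 1.09 (0.190). Ddit4 (1.10, adjusted p = 0.122), Fas (0.45, 0.293), Plk2 (-0.82, 0.0947) and Mt2 (1.19, 0.138) did not pass without replicates 6, 7 and 8.

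**Figure D2:**
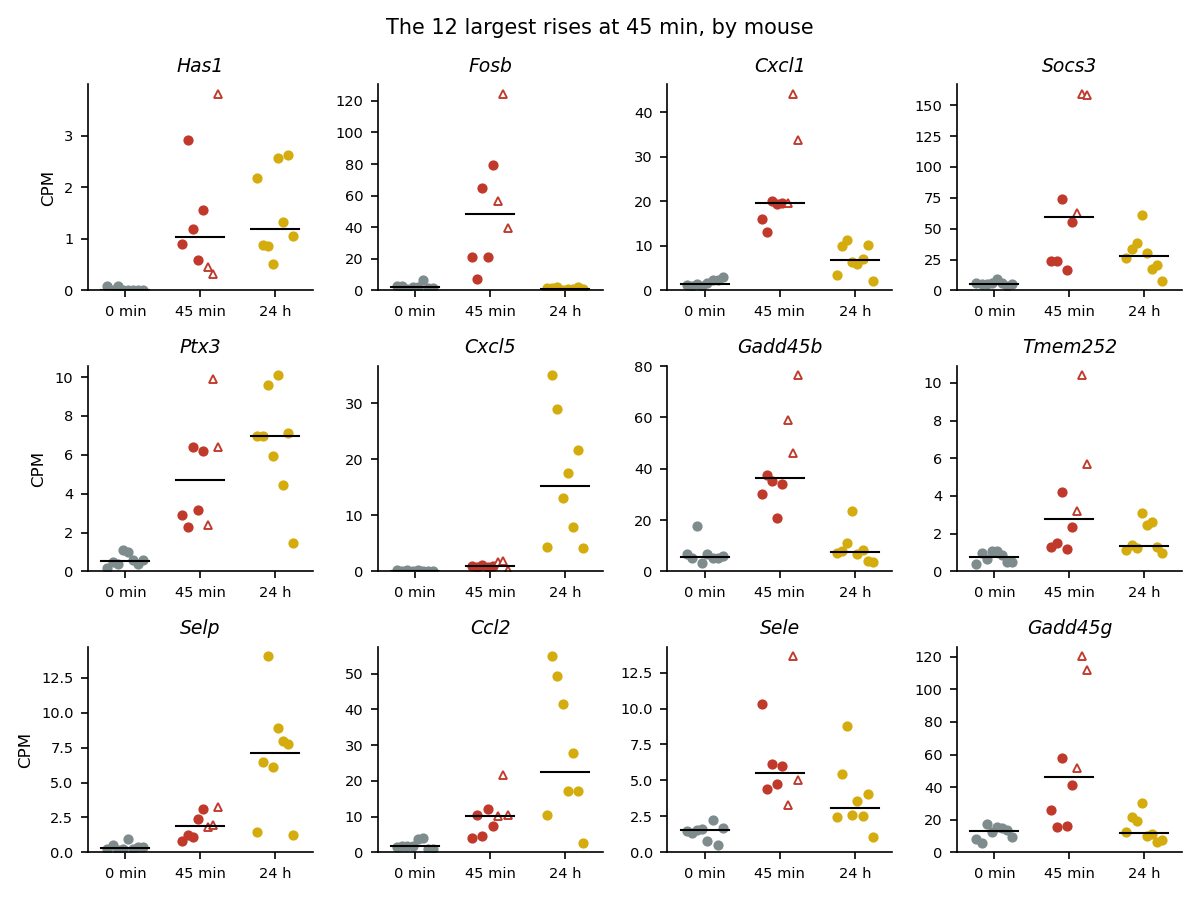
CPM (vertical, linear axis from 0) of the 12 transcripts with the largest rises in each of 8 mice at 0 min (grey), 45 min (red) and 24 h (yellow). Bars are medians, and open triangles are replicates 6, 7 and 8 at 45 min. All 45 min mice lie above all 0 min mice except in Cxcl5, Selp and Gadd45g, and the triangles are often at the top, as in Socs3, where 2 of them are near 159 CPM.

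In the remaining 18 rises, which no list held, the roles were mixed. Tmem252, which encodes a membrane protein, had 0.399, 0.755 and 1.10 CPM at 0 min and 1.19, 2.78 and 10.4 CPM at 45 min. The groups were just separate, and the range at 45 min was wide, with replicate 7 at its top. Its log2 fold change was 2.28 (standard error 0.42, adjusted p = 0.00343), and 1.46 (adjusted p = 0.0947) without replicates 6, 7 and 8. Slc10a6, a transporter of sulphated steroids, rose from 3.35 ± 1.09 to 15 ± 5.12 CPM with no overlap (2.16, adjusted p = 7.11e-05) and stayed at 1.98 without them.

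Signalling and ubiquitin genes among these 18 were Map3k6, a stress kinase (log2 fold change 1.63), Mylip, a ubiquitin ligase for the LDL receptor (0.98, adjusted p = 0.000462), Lnx1, another ubiquitin ligase (1.26), Klhl38 (0.92) and Gatsl3, an arginine sensor upstream of mTORC1 (1.15). The enzymes were Adh1, an alcohol dehydrogenase (1.39), and Hdc, which makes histamine (1.06). Channel and transport genes were Lrrc8a, a subunit of the volume-regulated anion channel (0.65), Chrna10, a nicotinic receptor subunit (0.76), and Slc25a33, a mitochondrial nucleotide carrier (0.86). Sema7a, a membrane-anchored semaphorin, rose by 0.82 with no overlap (62.4 ± 9.52 to 110.0 ± 17.9 CPM, adjusted p = 0.000534). Ifi205, of an interferon-inducible family with similar copies (1.02), AI607873 (1.03), D730005E14Rik (1.21), Plscr2 (0.65) and the transcript without a symbol, uc008cjp.2 (1.04), completed the group. Map3k6, Mylip, D730005E14Rik, Ifi205, AI607873, Sema7a, Chrna10, Lrrc8a and Slc10a6 passed without replicates 6, 7 and 8, and the other 9 did not. Of these 9 that passed, Chrna10 lost its call in 11 and AI607873 in 4 of the 16 fits that left out 1 library.

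Among the 22 falls, the Notch pathway, by which neighbouring cells signal through membrane-bound ligands, had 3 of 9 tested lower and 0 higher in edgeR, DESeq2 and limma-voom, and 6 lower and 0 higher at an unadjusted p under 0.05. Nrarp, a target and feedback inhibitor of Notch, had 11.3, 22.4 and 26.7 CPM at 0 min and 5.99, 9.55 and 12.2 CPM at 45 min. All but 2 of the 45 min mice were below the 0 min range, whose lower end was set by replicate 3 alone. Its log2 fold change was -1.19 (standard error 0.17, adjusted p = 0.000130). Hey1, a transcriptional repressor induced by Notch, went from 8.99, 12.3 and 15.9 CPM to 4.48, 6.06 and 9.75 CPM (-0.95, adjusted p = 0.000961), with 7 of 8 mice below the 0 min range. The ligand gene Dll1 went from 6.14, 8.94 and 12.2 CPM to 4.00, 5.04 and 5.84 CPM, with no overlap (-0.82, adjusted p = 0.00343). All 3 passed without replicates 6, 7 and 8, at -1.28, -0.86 and -0.84. The values of Dll4 (-0.54, adjusted p = 0.742), Jag1 (-0.44, 0.804), Dtx4 (-0.51, 0.427) and Notch3 (-0.18, 0.952) did not pass. Heyl (61.9 to 56.9 CPM, -0.12, adjusted p = 0.952) and Lfng (0.05, 0.986), the only member with a positive value, did not pass either. The median of the list was -0.51, or -0.43 without replicates 6, 7 and 8. A lower level in tissue can come from fewer cells of a type or from less RNA per cell, and the counts of whole ventricle cannot tell these apart.

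Further falls, which no list held, included Bcl6b, Hhex, Tcf15 and Sox9, all of which encode transcription factors. Bcl6b, a repressor found in endothelium, fell from 49.8 ± 10.7 to 25.2 ± 6.48 CPM (log2 fold change -0.98, adjusted p = 0.000961). Hhex (-0.99, adjusted p = 0.0392) and Tcf15 (-0.72, 0.0480) were also called lower. Their calls were lost in 9 and 14 of the 16 fits that left out 1 library. Sox9 had 1.74, 2.14 and 4.31 CPM at 0 min and 0.313, 0.798 and 2.30 CPM at 45 min. In all mice but replicate 4 it was below the 0 min range (-1.39, standard error 0.31, adjusted p = 0.0266). The call was lost without any one of 0 min replicates 6 and 8 and 45 min replicates 3, 5 and 8, where the adjusted p reached 0.0624. Bcl6b passed without replicates 6, 7 and 8 (-0.92), and Sox9 (-1.11, adjusted p = 0.158), Hhex (-0.98, 0.120) and Tcf15 (-0.70, 0.154) did not.

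Fam102a had the smallest adjusted p of the falls (9.11e-06). It fell from 28.5 ± 3.01 to 13.7 ± 2.31 CPM (log2 fold change -1.06, standard error 0.12), with no overlap and a value of -1.16 without replicates 6, 7 and 8. Rassf9 fell by 0.99 on the log2 scale (adjusted p = 0.0474) and did not pass without them (-0.82, adjusted p = 0.192). Its call was lost in 14 of the 16 fits that left out 1 library.

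Receptor and channel genes gave 1 rise and 1 fall among 10 receptors tested and 1 rise among 10 channels in edgeR. DESeq2 gave the same counts, and limma-voom called 0 receptors higher. At an unadjusted p under 0.05, 2 receptors were higher and 5 lower, and 1 channel was higher and 0 lower. Without replicates 6, 7 and 8 edgeR called 0 receptors higher and 2 lower, and 1 channel higher. The median of the receptor list was -0.26, and -0.48 without those libraries. Crhr2, the receptor for urocortins in the heart, had 2.15, 2.41 and 4.30 CPM at 0 min and 0.712, 0.960 and 1.36 CPM at 45 min. The groups did not overlap in this low-level transcript, and the log2 fold change was -1.40 (standard error 0.21, adjusted p = 0.000266), the same without replicates 6, 7 and 8. Adora2b, an adenosine receptor, rose by 1.27 (adjusted p = 0.0347) and did not pass without those libraries (0.70, adjusted p = 0.325). The potassium channel gene Kcna5, which carries the ultrarapid repolarising current, rose from 34.9 ± 9.90 to 65.2 ± 7.31 CPM with no overlap (0.90, adjusted p = 0.00219), and passed without them (0.82, adjusted p = 0.0356). Adrb1 (-0.57, adjusted p = 0.119) and Adora2a (-0.56, 0.350) did not pass, although Adora2a did without replicates 6, 7 and 8 (-0.96, adjusted p = 0.0148), nor did Kcnj11, Kcnd2, Hcn2, Hcn4 or Scn4b, which lay between -0.22 and 0.15.

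The 5 largest falls, and that of Eno1, were in transcripts at 12.2 CPM or less in each of the 16 mice, and Tpm1 and Actg1 are genes known for far higher expression. Tpm1 (uc009qfs.1, a listed transcript of the tropomyosin gene) had 2.93, 10.1 and 12.2 CPM at 0 min and 1.25, 2.29 and 3.23 CPM at 45 min. Only 1 of the 45 min mice reached the 0 min range, which replicate 3 widened downward (-2.01, standard error 0.27, adjusted p = 7.29e-05). Eno1 (uc008vxo.2), an enolase of glycolysis, fell from 3.08 ± 0.633 to 1.5 ± 0.445 CPM with no overlap (-1.03, adjusted p = 0.00383). Both passed without replicates 6, 7 and 8, at -2.02 and -1.12. The other transcripts of these genes are not paired with symbols in the sources used here, and how reads shared between transcripts were counted is not given in them, so that these values are for the listed transcript and not for the gene.

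Actg1 (uc057bav.1), a listed transcript of the gamma actin gene, had 0.367, 1.82 and 2.65 CPM at 0 min and 0, 0.232 and 0.595 CPM at 45 min. All mice but replicate 1 were below the 0 min range (log2 fold change -2.59, standard error 0.45, adjusted p = 0.00188), and the value was -2.26 without replicates 6, 7 and 8. Mir6935 had 0.0917, 1.20 and 1.73 CPM at 0 min and 0, 0.0356 and 0.783 CPM at 45 min, from 94 and 13 reads in total. It was at 0 in 4 of the 45 min mice, and replicates 3 and 8 lay inside the 0 min range (-2.73, standard error 0.62, adjusted p = 0.0270). These are not 2 independent falls: the precursor of Mir6935, chr11:120347350-120347413 on the minus strand of GRCm38.p6, lies inside Actg1 (chr11:120345687-120348495) on the same strand, between coding exons and within an exon of 2 transcripts annotated with a retained intron. Its reads are of polyadenylated RNA over 64 bases and do not measure the mature miRNA, which RefSeq gives as follows with its seed (bases 2 to 8) in capitals.
mmu-miR-6935-3p: uGUUCUUUgucuuuccacag
The call of Mir6935 was lost in 11 of the 16 fits that left out 1 library, where the adjusted p reached 0.0710.

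Rpl29, a ribosomal protein gene with many near-identical copies in the genome, had 0.783, 2.40 and 4.24 CPM at 0 min and 0, 0.525 and 1.59 CPM at 45 min. The groups overlapped in 2 mice (log2 fold change -1.88, standard error 0.43, adjusted p = 0.0302). Atcay, which encodes caytaxin and overlaps an antisense gene, had 4.22, 8.36 and 11.7 CPM at 0 min and 0.336, 2.2 and 4.86 CPM at 45 min, also with 2 mice inside the 0 min range (-1.75, standard error 0.43, adjusted p = 0.0480). Both calls were lost without replicates 6, 7 and 8 (Rpl29 -1.41, adjusted p = 0.138, and Atcay -1.38, adjusted p = 0.210), and in 8 and 13 of the 16 fits that left out 1 library. The lowest 0 min value of Mir6935, Actg1, Tpm1, Atcay and Nrarp was in each case that of replicate 3.

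**Figure D3:**
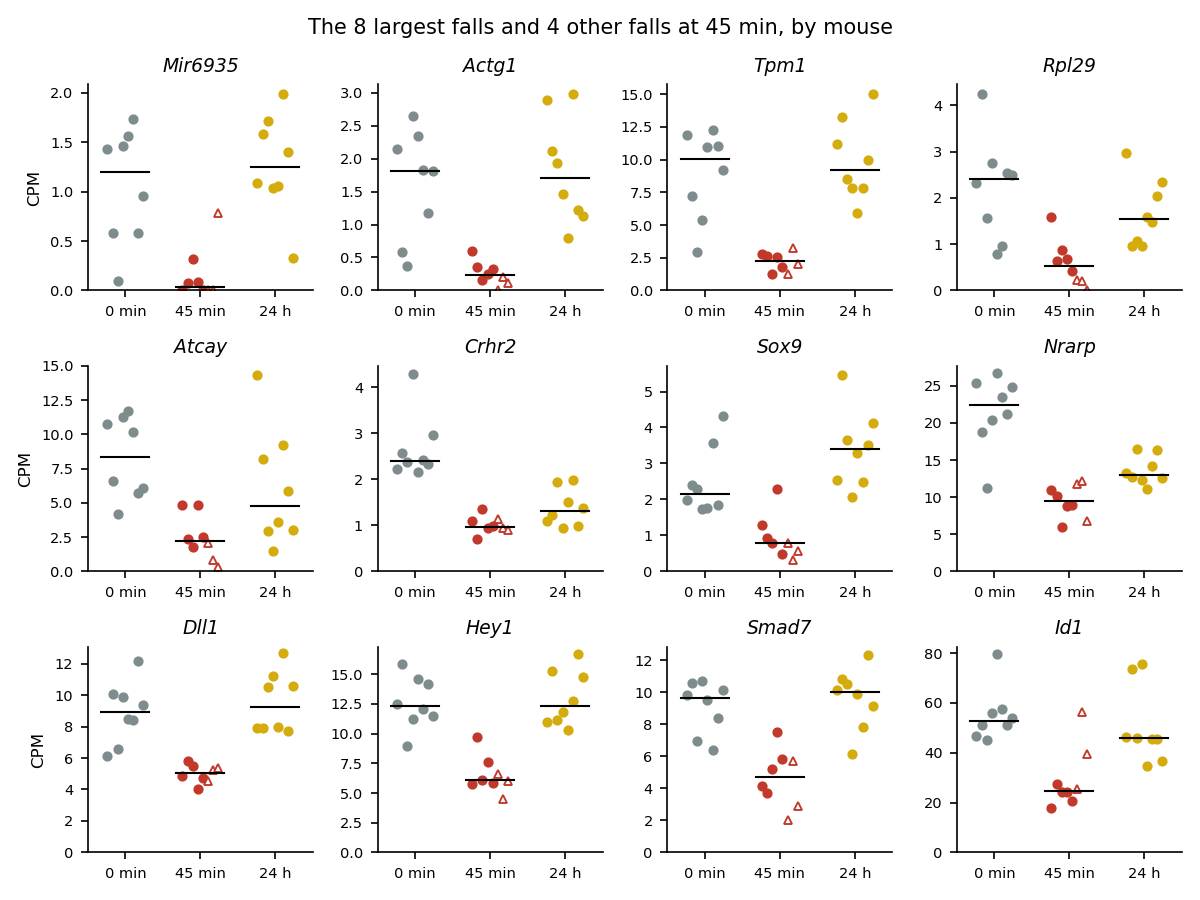
CPM (vertical, linear axis from 0) of the 8 transcripts with the largest falls and of Dll1, Hey1, Smad7 and Id1 in each of 8 mice at 0 min (grey), 45 min (red) and 24 h (yellow). Bars are medians, and open triangles are replicates 6, 7 and 8 at 45 min. In Crhr2 and Dll1 no 45 min mouse reaches the 0 min range, and the 24 h median of Crhr2 (1.31 CPM) is nearer to 45 min than to 0 min.

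In energy metabolism the counts of calls were too small to be read against the 0.727% called over all transcripts. In edgeR 0 of 16 tested genes of fatty acid use and lipid storage passed, with values between -0.43 and 0.60. DESeq2 and limma-voom also called 0, and 2 were higher at an unadjusted p under 0.05. Among 16 genes of glycolysis and mitochondrial energy metabolism the transcript of Eno1 was the only one that passed. Atp5a1 (5090 to 5465 CPM, log2 fold change 0.10), Cs (0.11) and Mdh1 (0.16) were among those that did not. Eno1b, at 0.589 and 0.252 CPM, had the lowest value of the list (-1.23, adjusted p = 0.698 in edgeR) and did not pass either. At an unadjusted p under 0.05, 0 were higher and 3 lower. All these lists were drawn from transcripts that the study had picked for change over time in these same mice, so that their counts are a description and not independent evidence, and a gene can stand in more than one list.

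**Figure D4:**
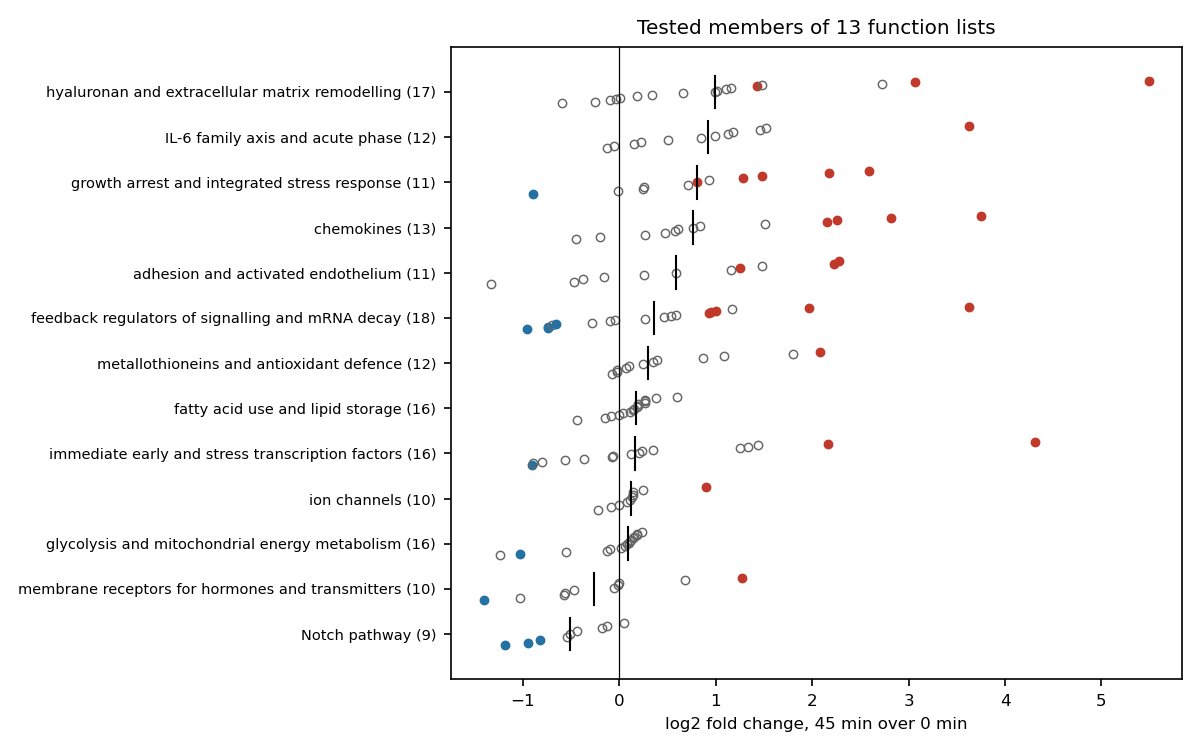
Each point is a tested member of a function list, placed by its log2 fold change at 45 min over 0 min. Filled points are past the threshold (red higher, blue lower), open points are not, bars are list medians, and the number tested is in parentheses. The medians run from -0.51 in the Notch list to 1.00 in the hyaluronan and matrix list.

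The levels of the called transcripts differed from mouse to mouse. In replicate 7 all 43 rises were above the highest 0 min mouse, in replicate 5 it was 42, and in replicate 4 it was 31. Over all transcripts tested, 7.11% to 27.2% of values lay above the 0 min range in a 45 min mouse, most in replicate 8. This share was 21.8%, 16.2% and 27.2% in replicates 6, 7 and 8, and at most 11.9% in replicates 1 to 5. The median shift of the 43 from the 0 min mean, on the scale of log2(CPM + 0.5), ran from 0.81 in replicate 4 to 1.62 in replicate 7. Replicate 7 held the highest value of 23 of the 43, replicate 8 of 10 and replicate 6 of 4, while replicate 4 held the lowest of 15. Of the 22 falls, 13 were below the 0 min range in replicate 4 and 17 to 20 in the others, with median shifts from -0.73 to -1.17. Over all transcripts, 6.52% to 27.8% of values lay below that range in a 45 min mouse, most in replicates 6 and 8. The share was 25.4%, 17.8% and 27.8% in replicates 6, 7 and 8, and at most 11.3% in replicates 1 to 5. The part of library quality in these differences between mice was not tested.

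**Figure D5:**
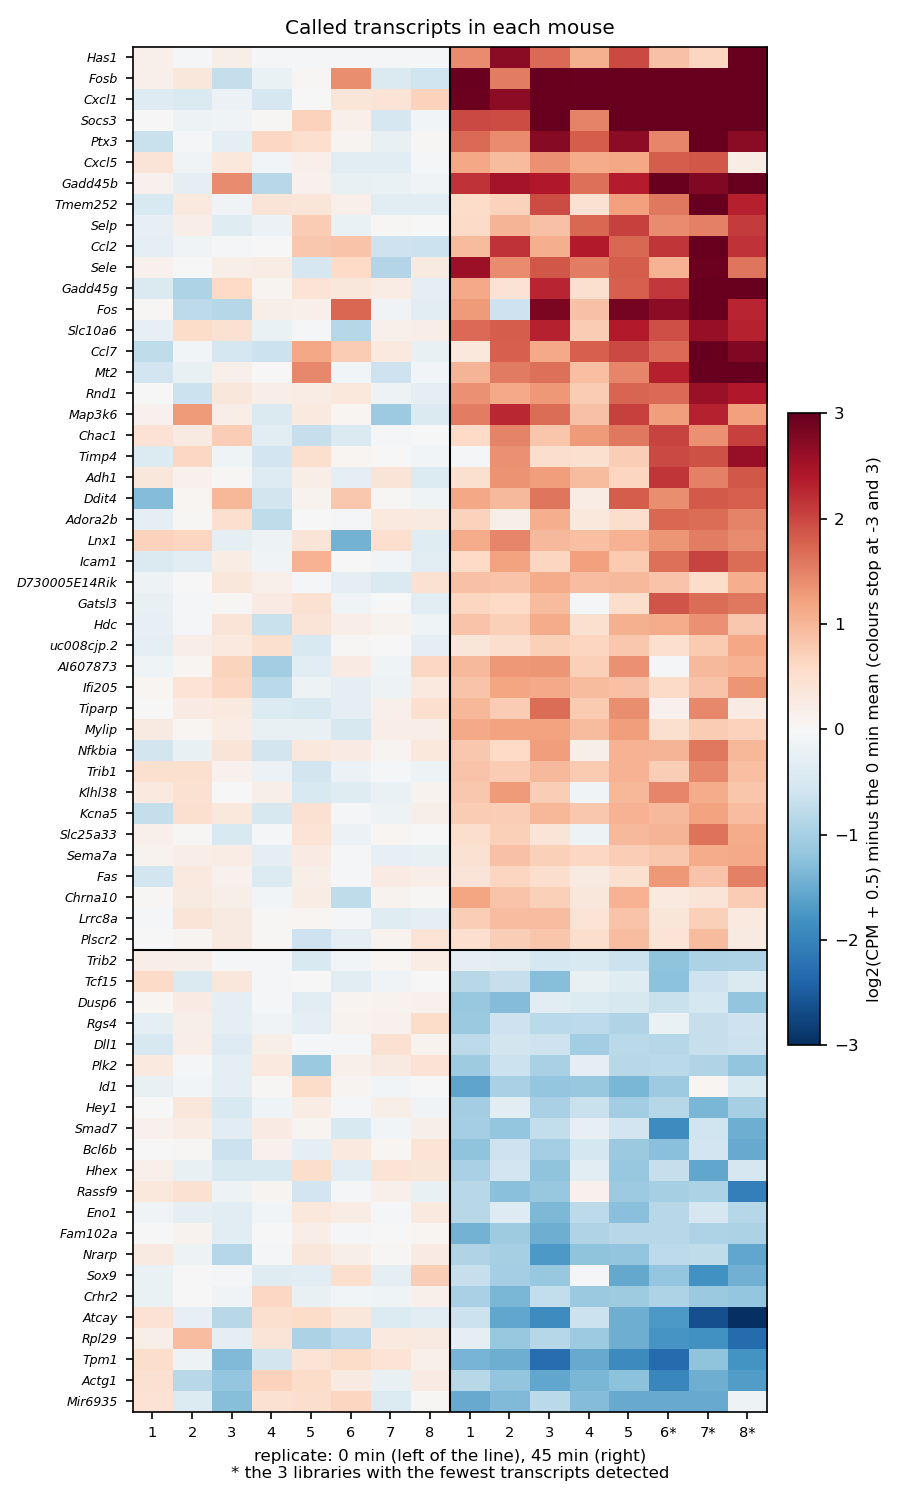
Colours give log2(CPM + 0.5) minus the 0 min mean for the 65 called transcripts (vertical) in 8 mice at 0 min and 8 at 45 min (horizontal), red above and blue below, with colours stopping at -3 and 3. The 43 rises (upper block) are deepest in replicates 7 and 8, which with replicate 6 are marked by an asterisk, and the columns of replicates 1 and 4 are paler.

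Markers of other cells were read beside these results. In edgeR 0 of 49 tested markers of fibroblasts, endothelium, mural cells, macrophages, neutrophils, platelets, epicardium and skeletal muscle passed, where 8 were higher and 2 lower at an unadjusted p under 0.05. DESeq2 called 3 of them higher, S1pr1 (endothelium, log2 fold change 0.62), Ms4a6c (macrophages, 0.96) and Cxcr2 (neutrophils, 2.35), and limma-voom called 0. Only Ms4a6c was called by edgeR without replicates 6, 7 and 8 (1.08, adjusted p = 0.0282). Of 11 cardiomyocyte transcripts, that of Tpm1 was the one that passed in edgeR. No marker list was at 0 in all mice. The sums below add CPM over a list, so that the most abundant members weigh most. In the cardiomyocyte sum Actc1 alone had means of 14854 CPM at 0 min and 16548 CPM at 45 min. In the platelet sum Pf4 had means of 19.7 and 23.7 CPM, and Ppbp, the other member, 1.24 and 0.907 CPM. The summed level of 6 tested and 1 untested neutrophil markers was 5.07 to 15.6 CPM at 0 min and 5.26 to 26.4 CPM at 45 min, with Mmp8 at 2.73 (adjusted p = 0.217) and Cxcr2 at 2.29 (0.119) on the log2 scale. At 45 min this sum was 10.1 to 26.4 CPM in replicates 6, 7 and 8 and 5.26 to 14.7 CPM in the other 5. The median log2 fold change of the neutrophil list was 0.77, and 0.29 without replicates 6, 7 and 8. The macrophage sum was 86.1 to 118 CPM at 0 min and 80.5 to 168 CPM at 45 min, where it was 80.5 to 93.1 CPM in replicates 6, 7 and 8 against 112 to 168 CPM in the other 5. The fibroblast sum was 666 to 872 CPM in the 3 and 873 to 1046 CPM in the 5 (776 to 1192 CPM at 0 min). The endothelial sums overlapped, at 362 to 439 and 428 to 551 CPM, as did the mural sums, at 211 to 255 and 249 to 299.7 CPM. The platelet sum was 11.1 to 35.2 CPM and 8.18 to 74.6 CPM, and it was 19.8 to 74.6 CPM in replicates 6, 7 and 8 against 8.18 to 16 CPM in the other 5. The same 3 libraries had cardiomyocyte sums of 22433 to 29366 CPM, against 17365 to 20439 CPM in the other 5 and 16148 to 23876 CPM at 0 min. The part of these differences in the rises and falls was not tested.

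At 24 h most of the transcripts called at 45 min differed again from their 45 min level. These values share the 45 min or the 0 min mice with the first comparison and are set side by side. The transcripts were picked for a difference between 45 min and 0 min, and that choice by itself favours a shift back at 24 h. The shares over all transcripts do not allow for it. Over all transcripts tested, 9.09% differed between 24 h and 45 min and 7.68% between 24 h and 0 min. Of the 43 rises, 18 were lower at 24 h than at 45 min (4.51% of all tested were) and 5 were higher (4.59% of all). Against 0 min, 20 of the 43 were higher (4.44% of all) and 1, Slc25a33, was lower (3.24% of all). From 0 min through 45 min to 24 h, Fosb had medians of 2.13, 48.1 and 1.19 CPM and Gadd45b 5.60, 36.3 and 7.46 CPM, and so were back at 24 h. Cxcl1 was in between, with 1.52, 19.7 and 6.76 CPM. The 5 that went on rising were Cxcl5 (medians 0.0936, 0.896 and 15.3 CPM), Selp (0.329, 1.9 and 7.11 CPM), Ccl2 (1.79, 10.3 and 22.5 CPM), Ccl7 (1.24, 6.13 and 16.7 CPM) and Mt2 (18.2, 60.2 and 245 CPM). Has1 (median 1.19 CPM) and Ptx3 (6.96 CPM) stayed near their 45 min level, with differences of 0.05 (standard error 0.42) and 0.42 (0.33) on the log2 scale that did not pass. Of the 22 falls, 18 were higher at 24 h than at 45 min and none was lower. Against 0 min, 3 were still lower at 24 h, namely Bcl6b (log2 fold change -0.64, adjusted p = 0.0105), Nrarp (-0.66, 0.0105) and Crhr2 (-0.94, 0.00242).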

How the data were processed

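Left ventricular mRNA of 24 mice was sequenced, 1 library per mouse, with reads of a strand-specific kit. The authors trimmed reads with cutadapt 1.9.1, mapped them to mm10 with TopHat2 2.1.0 and Bowtie2 2.2.9 and counted them with HTSeq 0.6.0, as the paper and the submitters' processing notes state. The deposited values are raw read counts per UCSC transcript. The counting mode and the strand setting are not given in the sources used here, so that reads of overlapping genes (22 of 62 called genes found in GENCODE M21, 17 of them with a gene on the opposite strand) and of shared transcripts are uncertain. One line without an identifier was dropped. Symbols were taken for 1209 transcripts from a table of the study, 1097 of them tested.

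In R 4.3.3, edgeR 4.0.16 was used: filterByExpr (10 counts, 15 in total), TMM, and a quasi-likelihood fit of all 24 libraries with time as the only factor. Adjusted p values are Benjamini-Hochberg over 8940 transcripts, threshold 0.05. Standard errors are the log2 fold change over the square root of F. The steps were tested on simulated data. DESeq2 1.42.0, limma 3.58.1 and sva 3.50.0 gave alternatives, since the study used DESeq2. Full values were given for the 12 largest rises and 8 largest falls whose higher group averaged 10 counts or more. Values by mouse for Fos, Hey1 and Dll1, and the 4 further falls drawn, were chosen after they were seen. The contrast, the lists and the markers were chosen with earlier results of these data known. The counts of 84 library pairs within time points all differed by more than sampling noise (lowest ratio of chi-square to its degrees of freedom 8.64). Surgeons and library pools are not in the labels and were not used. The values of 1 listed gene are not reported here.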

Additional observations from a re-analysis of the deposited data

Results flagged for a closer look

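Single mice stood apart in 4 of 46 groups of 8 by the gap of the highest or lowest value to its neighbour over the whole range, where a ratio above 0.526 was asked and chance passes about 5% of groups. Gadd45b had 17.5 CPM in replicate 3 at 0 min, and the other 0 min mice had 3.29 to 6.86 CPM. Crhr2 had 4.30 CPM in replicate 4 at 0 min, and the others had 2.15 to 2.97 CPM. Nrarp had 11.3 CPM in replicate 3 at 0 min, and the others had 18.8 to 26.7 CPM. The transcript uc012ath.2 took 35.2% of the counts of replicate 1 at 45 min, and 2.72% to 8.76% in the other 45 min mice. The call of Gadd45b, of Crhr2 and of Nrarp was kept without any 1 of the 16 mice.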

How the results depend on the processing

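No called transcript reversed its direction in any of 29 alternatives at the threshold of 0.05, and 27 of the 65 stayed past it in every one that tested them. The 65 calls (43 higher, 22 lower) became 100 with DESeq2 (70 higher), 138 with 1 surrogate variable (76 higher, 62 lower) and 102 with a covariate for how many transcripts a library detected (41 lower). At an adjusted p under 0.01, a setting not among the 29, the main fit gave 34 (23 higher, 11 lower). All 65 were among the calls of DESeq2 and of both covariate fits. Only 28 were higher without the 3 libraries with the fewest transcripts detected, and 14 were lower when only the 0 min and 45 min libraries were fitted. Leaving out 1 library gave 47 to 75 calls, 33 to 48 higher and 12 to 27 lower. The falls dropped most without 0 min replicate 8 (12), 0 min replicate 7 (14), 45 min replicate 5 (13) and 45 min replicate 6 (14). Of the rises 30 and of the falls 12 passed in all 16 such fits. Those that did not were Cxcl5, Fos, Ccl7, Timp4, Adora2b, Lnx1, Gatsl3, uc008cjp.2, AI607873, Slc25a33, Fas, Chrna10 and Plscr2, and among the falls Trib2, Tcf15, Dusp6, Id1, Hhex, Rassf9, Sox9, Atcay, Rpl29 and Mir6935. In plain CPM, without TMM, 13 called transcripts had groups that did not overlap, against 24. The replicate number as a block gave 49 calls, 35 higher and 14 lower, with 34 of the rises and 13 of the falls kept. The numbers did not pair the mice: the correlation of same-numbered deviations ran from -0.54 to 0.58, and 1 of 8 correlated best with its own number. The cause of these shifts was not tested. Has1, Cxcl5 and Mir6935 rest on few reads, and the depth limits them.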
